A study of Mus musculus with 6 samples.

Results

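Platelet-derived growth factors (PDGFs) are secreted dimers that signal through a pair of receptor tyrosine kinases on neighbouring cells. PDGF-A and PDGF-C act mainly through the alpha receptor, which marks mesenchymal progenitors and fibroblasts, and PDGF-B and PDGF-D mainly through the beta receptor, which marks pericytes and vascular smooth muscle. In many embryonic organs the ligand is made by an epithelium or an endothelium and the receptor by the mesenchyme around it, and this paracrine arrangement controls how mesenchymal cells multiply and spread.

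The 6 genes described here are the 4 ligands Pdgfa, Pdgfb, Pdgfc and Pdgfd and the 2 receptors Pdgfra and Pdgfrb, of 18193 genes that the array's annotation names singly. They were taken by gene name as a family, with earlier results of these data known. Expression was measured at embryonic day 13 (Theiler stage 21) in wild-type FVB/N embryos of unknown sex, in the tissue that forms the bladder neck and urethra. The tissue was parted after trypsin digestion, giving 3 arrays of epithelium (numbered 1, 2 and 5) and 3 of mesenchyme (numbered 1, 2 and 3), and the labels state that samples were not pooled. The comparison asks in which of these layers each ligand and receptor is expressed. Values below are normalized signal units, obtained from quantile-normalized log2(signal + 16), and cannot be set against each other between genes. Layer differences are log2 values, epithelium minus mesenchyme, with the standard error (SE) from limma, and the threshold is an adjusted p of 0.05 over all 13717 genes tested. The labels do not say that arrays came from separate embryos, so p-values measure the spread between these samples, which may be technical. In whole layers, fewer cells of a type and less RNA per cell cannot be told apart.

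The array labelled mesenchyme 1 stood apart, and the layer difference of each of the 6 genes is therefore given with and without it. For some list genes below only the fit over 6 arrays is given. Across genes it correlated at 0.755 to 0.784 with the other mesenchymal arrays, which correlated at 0.981 with each other. The summed signal of 12 epithelial markers (led by Krt8 and Epcam) was 95471 on mesenchyme 1, 15492 and 3167 on mesenchyme 2 and 3 and 222680 to 251655 on the epithelial arrays. That of 11 markers of other organs (led by Krt10 of epidermis and Alb of liver) was 361176 on mesenchyme 1, against 2723 to 11557 elsewhere. The part of these transcripts in the results below was not tested. Most markers otherwise went with the labels of the layers. All 12 epithelial markers had non-overlapping arrays, higher in epithelium, as 15.5% of all genes did. Of these markers 3 passed the threshold over 6 arrays and all 12 without mesenchyme 1, where 1.95% and 6.37% of all genes passed as higher in epithelium. Of 12 fibroblast and mesenchyme markers (led by Col3a1 and Vim) 8 had non-overlapping arrays, higher in mesenchyme, as 13.2% of all genes did. The others overlapped. Of the 12, 4 passed over 6 arrays and 8 without mesenchyme 1, where 4.03% and 8.17% of all genes passed as higher in mesenchyme. The summed signal of this list was 216339 to 273957 in mesenchyme and 39635 to 52245 in epithelium.

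Members of the family lay on opposite sides of the tissue boundary. Read from their brightest probe sets, Pdgfa was higher in epithelium, and Pdgfra was higher in mesenchyme, on all 6 arrays. The dimmer Pdgfra probe sets were lowest of all arrays on mesenchyme 1. They did not pass over 6 arrays (limma, adjusted p = 0.538 and 0.445 over all probe sets). Of the 2 main fits, Pdgfrb and Pdgfd passed the threshold as higher in mesenchyme only in the fit without mesenchyme 1. Pdgfc and Pdgfb passed in neither of them. Some other settings of the 6-array fit, given in the last section, also called Pdgfb, Pdgfd or Pdgfrb. In the main fit over all 6 arrays 2 of the 6 genes passed, 1 in each direction, where 5.98% of all genes tested did so (1.95% higher in epithelium and 4.03% higher in mesenchyme). Without mesenchyme 1 the count was 4 of 6, 1 higher in epithelium and 3 in mesenchyme, against 14.5% of all genes (6.37% and 8.17%). The arrays of the layers did not overlap for 4 of the 6 genes in each fit, 1 higher in epithelium and 3 in mesenchyme, with Pdgfb among them only over 6 arrays and Pdgfd only without mesenchyme 1. This was the case for 28.8% of all genes over 6 arrays (15.5% higher in epithelium and 13.2% in mesenchyme) and for 45.4% over 5 (23.1% and 22.3%). All 6 genes passed the filter on low signal. The median difference of the 6 was -1.76, against 0.12 for all genes tested, or -1.48 and 0.02 without mesenchyme 1. Pdgfb was read from its other probe set in the fit without mesenchyme 1. With the probe sets chosen on all 6 arrays kept, 5 of the 6 genes did not overlap without mesenchyme 1 and the median was -2.11.

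The upstream sequences of Pdgfa, Pdgfc and Pdgfra are shown because they stand for a gene higher in epithelium, a gene with no difference past the threshold and a gene higher in mesenchyme. They are the 250 bases before the RefSeq start site (GRCm38.p6), read 5′ to 3′ on the gene's strand, with capitals marking the motifs searched, which were the GC box (GGGCGG), the TATA box (TATAAA), the E-box bound by Snail and Zeb factors (CAGGTG) and the CArG box of serum response factor, each on either strand. Pdgfa lies at chr5:138994945-138995194 on the minus strand, Pdgfc at chr3:81036166-81036415 and Pdgfra at chr5:75152001-75152250 on the plus strand.
Pdgfa: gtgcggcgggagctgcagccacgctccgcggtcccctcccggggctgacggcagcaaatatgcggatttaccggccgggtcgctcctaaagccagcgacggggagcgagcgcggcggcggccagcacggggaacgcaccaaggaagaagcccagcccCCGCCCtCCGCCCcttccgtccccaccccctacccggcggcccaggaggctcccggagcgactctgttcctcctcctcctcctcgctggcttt
Pdgfc: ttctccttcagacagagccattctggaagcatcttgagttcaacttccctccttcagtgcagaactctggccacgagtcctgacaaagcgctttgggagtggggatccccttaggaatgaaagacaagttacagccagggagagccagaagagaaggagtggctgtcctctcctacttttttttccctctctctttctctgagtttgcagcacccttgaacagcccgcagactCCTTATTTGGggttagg
Pdgfra: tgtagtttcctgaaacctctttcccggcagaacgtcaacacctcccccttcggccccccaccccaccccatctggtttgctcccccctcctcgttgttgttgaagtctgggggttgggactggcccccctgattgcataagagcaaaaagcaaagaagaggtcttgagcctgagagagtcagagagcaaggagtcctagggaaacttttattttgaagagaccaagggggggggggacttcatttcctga
The Pdgfa sequence was 72.4% G and C with 28 CpG dinucleotides, at percentile 92.4 of 32851 RefSeq windows of this length, and held 2 GC boxes whose first bases lay 93 and 86 bases before the start. The Pdgfra and Pdgfc sequences were 54.4% and 50.8% G and C with 4 and 3 CpG dinucleotides, close to the median of 52.4% and under the median of 6. The Pdgfc sequence held a CArG box beginning 17 bases before the start, a motif present in 1.47% of all windows, and the Pdgfra sequence held none of the 4 motifs. A GC box was present in 32.7% of windows, a TATA box in 12.4% and the E-box in 17.2%. A second RefSeq start of Pdgfa had 19 CpG dinucleotides and 1 GC box, and the Pdgfd sequence had 3 CpG dinucleotides and a TATA box beginning 160 bases before its start. Windows on 1 chromosome were left out beforehand, so the 32851 windows do not cover the whole genome. Of the 6 genes, 4 matched a RefSeq window among those kept. Pdgfb and Pdgfrb did not, which does not mean that they lack a RefSeq start. A match describes these letters and not a bound site.

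**Figure D1:**
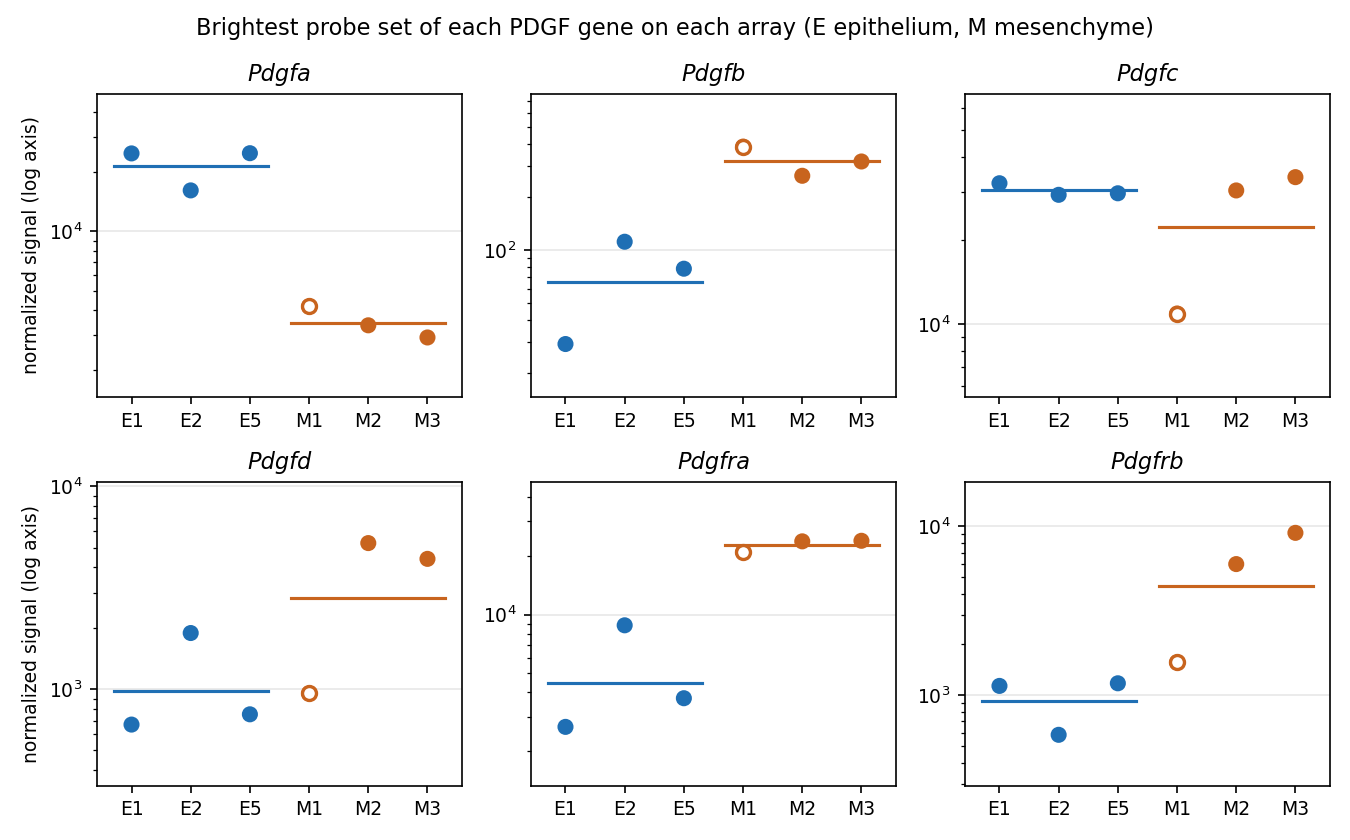
Normalized signal (log axis) of the brightest probe set of each of the 6 PDGF genes on the epithelial arrays E1, E2 and E5 and the mesenchymal arrays M1, M2 and M3, with mesenchyme 1 as an open circle and horizontal lines at each layer's mean of log2 values over all its arrays. Pdgfa read 16102 to 24804 on the epithelial arrays and 2919 to 4183 on the mesenchymal arrays, and the 3 arrays of Pdgfra in mesenchyme sit between 20926 and 23895.

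Among the ligands, Pdgfa, which encodes the A chain that many embryonic epithelia secrete, was the epithelial member. It read 24742, 16102 and 24804 on epithelium 1, 2 and 5 (21883 ± 5006, SD, n = 3) and 4183, 3362 and 2919 on mesenchyme 1, 2 and 3 (3488 ± 641, n = 3). Every epithelial array lay above every mesenchymal array, and mesenchyme 1 sat with the other mesenchymal arrays. The difference was 2.63 ± 0.267 SE, or 6.20-fold (limma, adjusted p = 0.00427), and 2.77 ± 0.247, or 6.83-fold (adjusted p = 0.0011), without mesenchyme 1. Pdgfa ranked 198 of 13717 genes from the most epithelial end, and 280 of 13587 without mesenchyme 1. Its call held when any single array was left out, with differences between 2.47 and 2.86. The other Pdgfa probe set read 1317, 1051 and 1291 on the epithelial arrays and 255, 277 and 319 on the mesenchymal arrays. It gave a difference of 2.04 ± 0.318 (adjusted p = 0.0182 over all probe sets).

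Pdgfc, whose product must be cut by a protease before it can bind the alpha receptor, did not differ past the threshold. It read 32139, 29196 and 29571 on epithelium 1, 2 and 5 and 10918, 30273 and 33800 on mesenchyme 1, 2 and 3. Mesenchyme 2 and 3 lay within or just above the epithelial range, and mesenchyme 1 lay 2.93-fold below their mean. The difference was 0.44 ± 0.406 (limma, adjusted p = 0.599), and -0.08 ± 0.125 (adjusted p = 0.759) without mesenchyme 1, where the 95% confidence interval ran from -0.38 to 0.22 on the log2 scale. The second probe set behaved alike, reading 27591, 30727 and 23261 in epithelium and 9365, 29288 and 27028 in mesenchyme, with differences of 0.47 and, without mesenchyme 1, of -0.06. Both Pdgfc probe sets are of kinds (_s_at and _a_at) that can match several transcripts.

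Pdgfa and Pdgfc share the alpha receptor, so their layer differences were compared within arrays. The log2 ratio of Pdgfa to Pdgfc lay between -0.86 and -0.25 on the epithelial arrays and between -3.53 and -1.38 on the mesenchymal arrays, with no overlap. The ratio was 2.19 log2 units higher in epithelium (exact permutation test, two-sided, p = 0.1, the smallest p that 3 against 3 arrays allow). Without mesenchyme 1 it was 2.85 units higher (exact permutation p = 0.1, again the smallest possible). Because no smaller p was possible in either case, the test cannot decide whether the layer differences were unequal. The values show that the ratio was higher on every epithelial array than on any mesenchymal array. They do not show that either gene was unchanged.

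Pdgfd, whose product also needs cutting before it binds the beta receptor, read 671, 1895 and 753 on epithelium 1, 2 and 5 and 955, 5258 and 4396 on mesenchyme 1, 2 and 3. Mesenchyme 2 and 3 lay above all epithelial arrays, while mesenchyme 1 lay inside the epithelial range and 4.97-fold below the mean of mesenchyme 2 and 3. The difference was -1.49 ± 0.722 (limma, adjusted p = 0.313), and -2.32 ± 0.472, or 4.99-fold higher in mesenchyme (adjusted p = 0.0173), without mesenchyme 1. A dimmer probe set, under the filter on low signal, read 12.4, 18.2 and 28.6 in epithelium and 117, 302 and 215 in mesenchyme, so that mesenchyme 1 stood above the epithelial arrays there. Fitted in limma with no filter it gave -2.61 ± 0.529 (adjusted p = 0.0595 over all probe sets), and -2.93 ± 0.501 (adjusted p = 0.0195) without mesenchyme 1. The remaining Pdgfd probe set read 34.8 to 80.8 over the 6 arrays and differed by -0.16 ± 0.479, or -0.45 ± 0.482 without mesenchyme 1.

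Pdgfb, the B chain that endothelium and platelets are known for, did not pass the threshold in either fit. Its brightest probe set read 29.3, 111 and 78.2 on epithelium 1, 2 and 5 and 385, 263 and 317 on mesenchyme 1, 2 and 3, so the layers did not overlap. The difference was -2.03 ± 0.528 (limma, adjusted p = 0.074), and -1.90 ± 0.571 (adjusted p = 0.073) on this same probe set without mesenchyme 1. The other probe set read 168, 89.6 and 70.5 in epithelium and 128, 183 and 157 in mesenchyme, which overlapped, and differed by -0.52 ± 0.472 (adjusted p = 0.625). Without mesenchyme 1 that other probe set was the brighter one and stood for the gene, at -0.64 ± 0.504 (adjusted p = 0.499). No detection calls were used here, so a signal of this size has no bound to mark it as background. Of 12 endothelial markers (led by Tek and Cldn5) 11 were tested. All 11 had non-overlapping arrays, higher in mesenchyme, in both fits, as 13.2% and 22.3% of all genes did. Over 6 arrays 6 passed the threshold, all higher in mesenchyme, and 5 did not pass. Without mesenchyme 1, 8 passed in that direction. Of all genes 4.03% were higher in mesenchyme over 6 arrays and 8.17% without mesenchyme 1. The summed signal of the endothelial markers was 23355 to 30239 in mesenchyme and 1527 to 3471 in epithelium. Of 6 platelet and megakaryocyte markers (led by Pf4 and Itga2b) 5 were tested and 0 passed in limma (2 at an unadjusted p under 0.05, and 1 past the threshold without mesenchyme 1), with a summed signal of 22775 on mesenchyme 1, 2491 and 2506 on mesenchyme 2 and 3 and 2026 to 2294 in epithelium. Their part in the Pdgfb values was not tested.

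**Figure D2:**
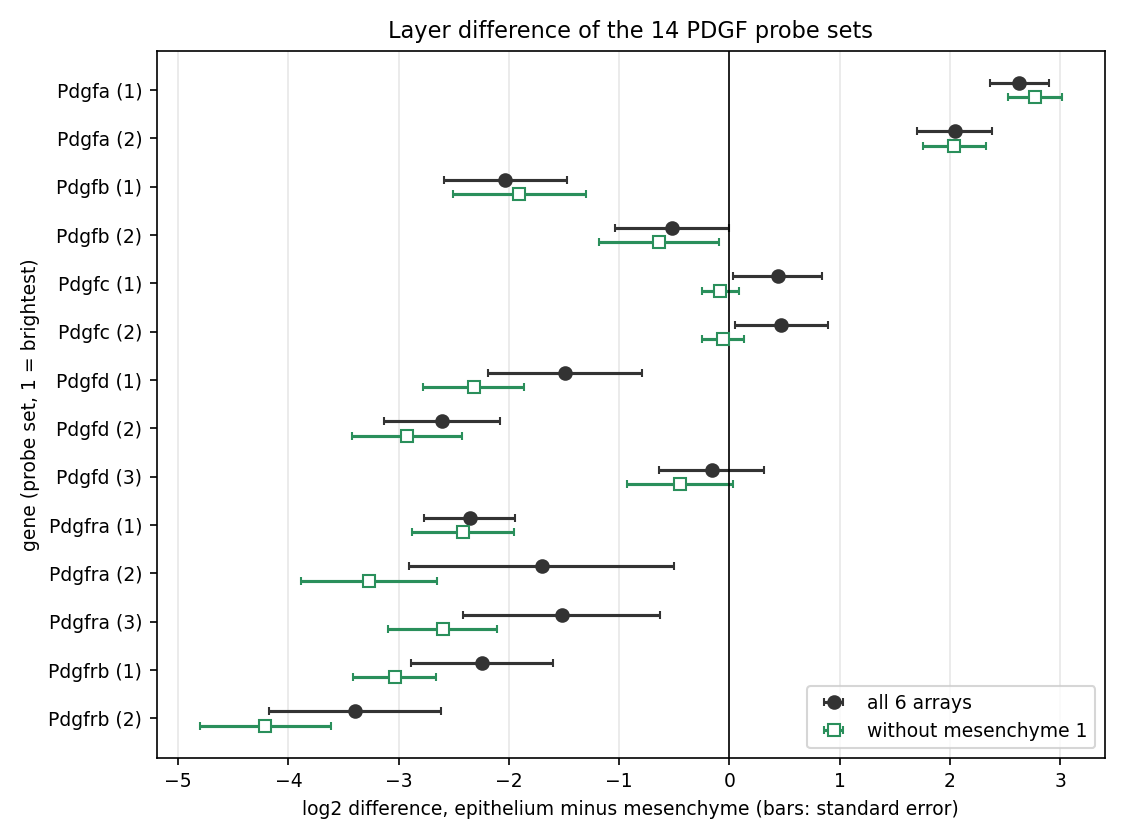
Log2 difference, epithelium minus mesenchyme, of each of the 14 probe sets of the PDGF genes (1 marks the brightest of a gene), with bars of 1 standard error from limma, fitted with no filter on all 6 arrays (filled circles) and without mesenchyme 1 (open squares). The 2 Pdgfa probe sets lie right of 0 in either fit, the 5 receptor probe sets lie left of 0, and the 2 Pdgfc probe sets move from 0.44 and 0.47 to -0.08 and -0.06 without mesenchyme 1.

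Both receptors were higher on mesenchyme 2 and 3 than on any epithelial array. Pdgfra, which encodes the alpha receptor, read 2663, 8820 and 3733 on epithelium 1, 2 and 5 (5072 ± 3290, SD, n = 3) and 20926, 23737 and 23895 on mesenchyme 1, 2 and 3 (22853 ± 1670, n = 3). The mesenchymal arrays lay close together above all epithelial arrays, and epithelium 2 was the highest epithelial array. The difference was -2.36 ± 0.423, or 5.12-fold higher in mesenchyme (limma, adjusted p = 0.0224), and -2.41 ± 0.470, or 5.33-fold (adjusted p = 0.0145), without mesenchyme 1. This call was less secure than that of Pdgfa. It ended without epithelium 1 (adjusted p = 0.0856), epithelium 5 (0.107), mesenchyme 2 (0.0884) or mesenchyme 3 (0.0695), under median centring (-2.11, adjusted p = 0.0896) and when its 3 probe sets were averaged (-1.86, adjusted p = 0.244). Epithelium 2 also had the highest summed endothelial signal of the epithelial arrays (3471 against 1645 and 1527), while its summed fibroblast and mesenchyme signal of 49000 lay between those of the other epithelial arrays (39635 and 52245). The members of that sum did not all follow it. On epithelium 1, 2 and 5 Col3a1 read 12408, 21981 and 15731, highest on epithelium 2, and Vim read 9984, 9671 and 10185, lowest there. The part of carried-over cells was not tested.

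The Pdgfra probe sets disagreed on mesenchyme 1. The second read 268, 1234 and 356 in epithelium, then 195, 4539 and 4726 on mesenchyme 1, 2 and 3. The dimmest read 90.6, 179.7 and 145 in epithelium, then 87.3, 609 and 1212 on mesenchyme 1, 2 and 3. On both of them mesenchyme 1 was the lowest of all 6 arrays, 22.0-fold and 8.48-fold below the mean of mesenchyme 2 and 3, whereas on the brightest probe set it was 1.14-fold below. Their differences were -1.70 ± 1.22 (limma, adjusted p = 0.538 over all probe sets) and -1.52 ± 0.871 (adjusted p = 0.445). Without mesenchyme 1 they were -3.27 (adjusted p = 0.0176) and -2.60 (adjusted p = 0.0118), so that all 3 Pdgfra probe sets were then past the threshold as higher in mesenchyme. What sets the probe sets apart on that array was not tested.

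Pdgfrb, which encodes the beta receptor, read 1137, 584 and 1178 on epithelium 1, 2 and 5 (966 ± 332, SD, n = 3) and 1566, 5984 and 9159 on mesenchyme 1, 2 and 3. The layers did not overlap, but mesenchyme 1 lay only 0.41 log2 units above the highest epithelial array and 4.69-fold below the mean of mesenchyme 2 and 3. The difference was -2.24 ± 0.668 (limma, adjusted p = 0.112), and -3.03 ± 0.393, or 8.19-fold higher in mesenchyme (adjusted p = 0.00305), without mesenchyme 1. The other probe set, of the kind that matches 1 transcript family only, read 48.6, 18.3 and 92.9 in epithelium and 213, 969 and 1225 in mesenchyme, again without overlap. It gave -3.39 ± 0.751 (adjusted p = 0.0562 over all probe sets), and passed at adjusted p = 0.0444 when each gene was read only from probe sets of that kind. Of 13 pericyte and vascular mural markers (led by Acta2 and Notch3) 9 were tested and 2 passed, higher in mesenchyme, against 4.03% of all genes. Without mesenchyme 1, 2 of 7 tested passed in that direction, against 8.17%. The summed signal of the list was 77166, 39456 and 28973 on mesenchyme 1, 2 and 3 and 9939 to 15051 in epithelium. Much of these sums came from Acta2, at 38894, 27431 and 20284 on mesenchyme 1, 2 and 3. Vtn, singled out after its values were seen, added 14274 on mesenchyme 1 against 96.9 and 107 on mesenchyme 2 and 3. Notch3 read 2826, 3068 and 2584 on the mesenchymal arrays and did not pass (0.22, adjusted p = 0.709). The part of mural cells in the Pdgfrb values was not tested.

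**Figure D3:**
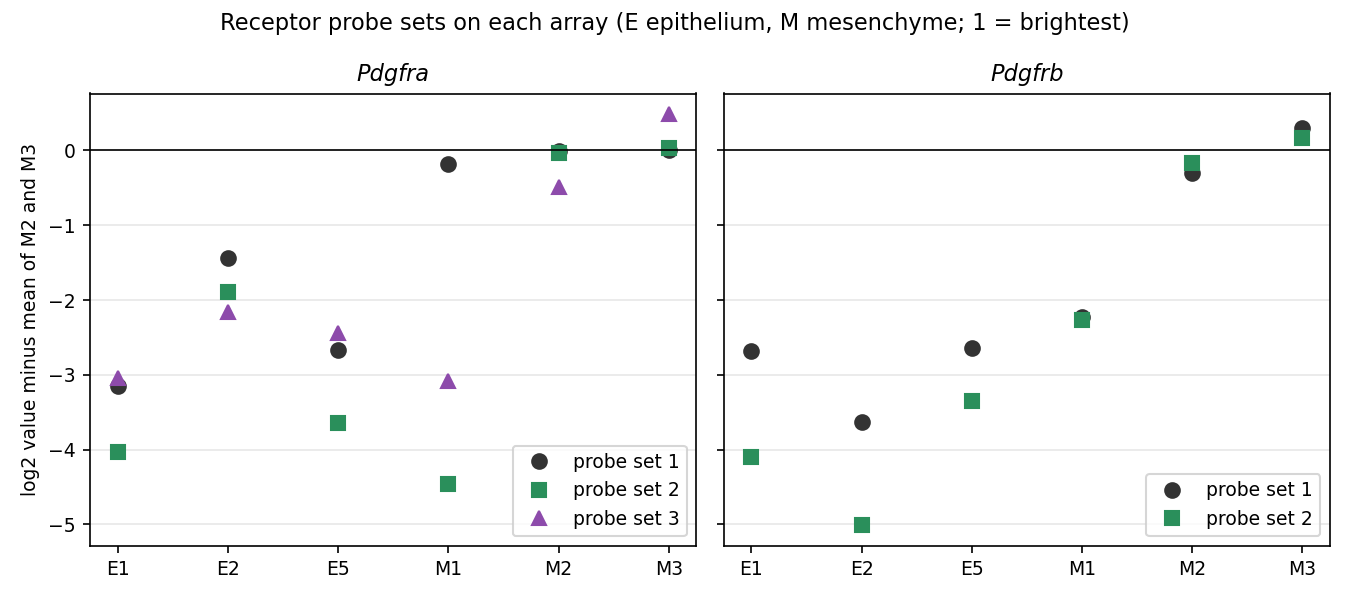
Log2 value of each receptor probe set on each array minus its mean on mesenchyme 2 and 3, for the 3 probe sets of Pdgfra and the 2 of Pdgfrb (1 marks the brightest). On mesenchyme 1 the brightest Pdgfra probe set is at -0.19 and the others are at -4.46 and -3.08, while the Pdgfrb probe sets are at -2.23 and -2.27.

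The receptors were also compared with each other within arrays. The log2 ratio of Pdgfra to Pdgfrb lay between 1.22 and 3.88 on the epithelial arrays and between 1.38 and 3.73 on the mesenchymal arrays, which overlapped almost wholly. The layer difference of this ratio was -0.12 (exact permutation test, two-sided, p = 0.8) and 0.62 without mesenchyme 1 (exact permutation p = 0.9), with the sign also turned without normalization (0.12) and without epithelium 1 (0.41) or epithelium 5 (0.23). With 3 arrays per layer this does not show that the receptors were distributed alike. At the level of probe sets, 12 of the 14 passed the filter, and 3 of these were past the threshold over all 6 arrays (2 higher in epithelium and 1 in mesenchyme), where 3.66% of all probe sets tested were (1.24% and 2.42%). Without mesenchyme 1 the count was 8 (2 and 6), against 9.47% (4.19% and 5.28%). All 5 receptor probe sets were among the 8.

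Genes that process or bind the ligands were read from a list of 12, of which 9 were tested. Over all 6 arrays 1 passed, higher in mesenchyme, and the median difference was -0.41, against 5.98% called and a median of 0.12 over all genes. Plat, the tissue plasminogen activator that is known to cut PDGF-C, read 934, 1284 and 1045 in epithelium and 3814, 7696 and 6529 in mesenchyme. All mesenchymal arrays lay above the epithelial ones, by -2.40 ± 0.352 (limma, adjusted p = 0.0117). Nrp1, a co-receptor of vascular and axonal ligands that can also bind PDGF, differed by -2.18 (adjusted p = 0.0661, or 0.0237 when mesenchyme 1 was left out), and the proprotein convertase Pcsk5 of -0.06. St14, the membrane protease matriptase that is known to cut PDGF-D, was singled out after its values were seen. It read 3652, 2745 and 2559 in epithelium and 927, 137 and 26.1 on mesenchyme 1, 2 and 3. Its difference was 4.02 ± 1.02 (adjusted p = 0.0675), and 5.30 (adjusted p = 0.00143) without mesenchyme 1. Without mesenchyme 1, 1 gene of the list passed as higher in epithelium and 3 as higher in mesenchyme, against 6.37% and 8.17% of all genes.

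Of 26 adaptors, kinases and phosphatases that act at the receptors, 25 were tested and 1 passed, higher in mesenchyme (median 0.05), a share under the 5.98% of all genes. This was Ptprb, a receptor phosphatase best known from endothelium (-2.86 ± 0.457, limma, adjusted p = 0.0152). The rule also named the adaptors Crk, at 23222 to 29823 over the 6 arrays (difference 0.00, adjusted p = 0.99), and Gab1, at 23201 to 23333 in epithelium and 16734 to 18625 in mesenchyme (0.40, adjusted p = 0.175). Without mesenchyme 1, 2 genes of this list passed as higher in epithelium and 4 as higher in mesenchyme. Of all genes 6.37% and 8.17% did so in that fit.

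Of 18 response genes, which growth factors including PDGF are known to induce, 17 were tested and 1 passed, higher in epithelium (median 0.42, or 0.12 without mesenchyme 1). This share was near the 5.98% of all genes and is no result about the list. Fosl1, an AP-1 transcription factor, read 1400.3, 1273 and 1792 in epithelium and 37.5, 163 and 140.0 in mesenchyme (3.70 ± 0.531, limma, adjusted p = 0.011). The rule also named the immediate-early genes Egr1 and Fos. Egr1 read 50219.5 to 59822 on 5 arrays and 11049 on mesenchyme 1, and Fos read 40749 to 48292 on those 5 arrays and 8497 on mesenchyme 1. Without mesenchyme 1 their differences were -0.11 and 0.12. In that fit 1 gene of the list passed in each direction, against 6.37% of all genes higher in epithelium and 8.17% in mesenchyme. The tissue had been digested with trypsin, and the part of that step in these levels was not tested.

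Relatives of the family were the vascular endothelial growth factors and the receptors of the PDGF and VEGF classes. Of 15 in the list 13 were tested, and 4 passed, all higher in mesenchyme (9 without mesenchyme 1, all in that direction), with a median of -1.97. Over all genes 4.03% were higher in mesenchyme (8.17% without mesenchyme 1). The other 9 did not pass over 6 arrays. Kdr, the main VEGF receptor of endothelium and also a member of the endothelial marker list, differed by -4.03 ± 0.753 (limma, adjusted p = 0.0252), Vegfd by -3.35 (adjusted p = 0.0367) and the lymphatic receptor Flt4 by -3.15 (adjusted p = 0.0329). Pdgfrl, a receptor-like protein without a kinase domain, read 255, 407 and 287 in epithelium and 1809, 1279 and 1188 in mesenchyme (-2.12 ± 0.356, adjusted p = 0.0175). Kit, the stem cell factor receptor of the same class as the PDGF receptors, had its arrays on the other side, at 1684 to 3078 in epithelium and 802 to 1096 in mesenchyme, and did not pass (1.14, adjusted p = 0.12). Over the 4 lists together, 7 of 64 genes tested passed (1 on the epithelial and 6 on the mesenchymal side), and 21 did without mesenchyme 1 (4 and 17), where 5.98% and 14.5% of all genes did. This count was 0 without epithelium 1 or epithelium 5, 1 without mesenchyme 2 and 2 without mesenchyme 3.

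**Figure D4:**
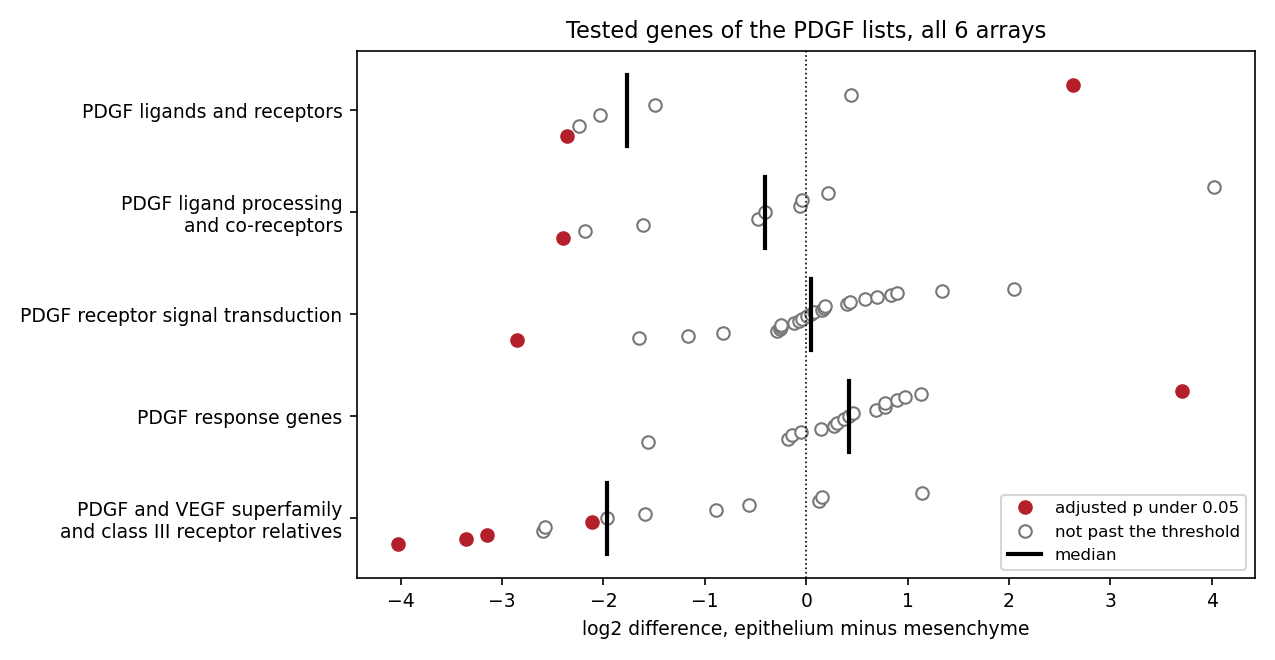
Log2 difference, epithelium minus mesenchyme, over all 6 arrays for each tested gene of the family and of the 4 pathway lists, filled where adjusted p was under 0.05, with a vertical bar at each list's median. Pdgfa (2.63) and Pdgfra (-2.36) are the filled members of the family, and the medians run from -1.97 for the relatives to 0.42 for the response genes.

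Other genes with the most similar profiles were found by Pearson correlation with each member over the 6 arrays, among 13716 other genes. The arrays fall into 2 layers and 1 array stood apart, so high values of r are common and carry no test. Pdgfa was nearest to Vangl1, a planar cell polarity gene (r = 0.997), Usp20 and Nipal3, with 213 genes above r = 0.95. Vangl1 read 4081, 2842 and 4696 in epithelium and 931, 785 and 789 in mesenchyme. Pdgfra was nearest to the microtubule kinase gene Dclk1 (r = 0.999), the laminin chain gene Lama4 and Dock10, with 212 genes above 0.95. Dclk1 shared the high epithelium 2 value and the steady mesenchymal values, reading 451, 2831 and 620 in epithelium and 12926, 16845 and 15813 in mesenchyme. Pdgfc followed Zbtb37, the growth factor receptor gene Igf1r and Hdac8 (r = 0.999 for each), with 629 genes above 0.95. Igf1r was lowest on mesenchyme 1, at 3175, and read 5690 to 6045 elsewhere. Pdgfd was nearest to Tril (r = 0.998), the phosphodiesterase gene Pde5a and the ligand gene Wnt5a, with 108 genes above 0.95. Pdgfrb was nearest to Creb3l2 (r = 0.996), St3gal2 and Pgrmc2, with 95. Pdgfb was nearest to Fkbp11 (r = 0.997), Ctla2b and Cacnb4, with 141.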

How the data were processed

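Affymetrix Mouse Genome 430 2.0 arrays were hybridised with RNA amplified in 2 rounds, 3 arrays per layer, per the labels' protocols. The authors deposited 1 intensity per probe set and array on a linear scale. GCOS is named per the submitters' processing notes, with version and settings not given in the sources used here. Each array's mean without its top and bottom 2% was 1500, and array medians lay between 126 and 254 (ratio 2.02).

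Of 45101 probe sets, 64 controls were left out, and of the rest 34945 name 1 gene, 932 several and 9160 are unnamed here. Values were quantile normalized after log2(signal + 16), which understates changes of dim genes. Probe sets over the 40th percentile of mean log2 value were kept, each gene was read from its brightest probe set, and limma 3.58.1 under R 4.3.3 fitted the layers (lmFit, eBayes with trend, Benjamini-Hochberg). All genes had a median difference of 0.12 (0.06 unnormalized, 0.23 median-centred), which is not subtracted. The code was tested on simulated data. Array number limits precision.

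The members and lists were chosen with earlier results of these data known. Named genes are the members, the 3 genes most correlated with each, in each pathway list up to 4 past the threshold with the largest difference (with the 2 brightest where fewer than 2 passed) and the 2 brightest of each marker list. Kit, St14, Vtn, Rgs5, Cspg4, Abcc9, Kcnj8, Mcam and Des were named after their values were seen. The lists of smooth muscle (led by Acta2 and Actg2, 2 of 8 tested past the threshold), neuron and glia (Elavl4 and Stmn2, 5 of 8) and macrophage markers (Csf1r and Adgre1, 0 of 5 in limma, 2 at an unadjusted p under 0.05) were also fitted, with all 7 calls higher in mesenchyme. Of all genes 4.03% passed in that direction.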

Additional observations from a re-analysis of the deposited data

How the results depend on the processing

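The 6-array fit in limma was repeated with offsets of 1 and 64, no normalization, median centring, no filter, a 60th-percentile filter, averaged probe sets, unique probe sets only, eBayes without trend or robust, array quality weights, a replicate block and with every array dropped once. Pdgfb had no value under the 60th-percentile filter and Pdgfc none from unique probe sets. Array weights gave Pdgfb -2.81, Pdgfd -2.55 and Pdgfrb -2.89, all then past the threshold, turned Pdgfc to -0.0032, and called 5 members and 30 pathway genes (12 higher in epithelium, 18 in mesenchyme). Median centring moved Pdgfra to -2.11 and averaged probe sets to -1.86, each leaving 1 member called, and unique probe sets brought Pdgfrb to -3.39. No normalization gave 11 pathway calls. The layer difference of the log2 ratio of Pdgfra to Pdgfrb was 0.12 without normalization and under median centring. No label says that a shared number pairs samples, so the 2 shared numbers were not taken to do so. Same-numbered arrays deviated from their layer means with r = -0.05 and -0.02. With 3 arrays per layer this can neither show nor exclude pairing. The replicate block gave 2.41 for Pdgfa and -2.20 for Pdgfra, both past no threshold, with 0 members and 0 pathway genes called. Dropping single arrays gave 2.47 to 2.86 for Pdgfa, -2.35 to -0.64 for Pdgfb and -0.080 to 0.75 for Pdgfc. It gave -2.32 to -1.05 for Pdgfd, -2.86 to -1.98 for Pdgfra and -3.03 to -1.72 for Pdgfrb. With single arrays dropped, 1 to 4 members and 0 to 21 pathway genes were called. The layer differences of the log2 ratios were then -0.98 to 0.62 (Pdgfra to Pdgfrb) and 1.79 to 2.85 (Pdgfa to Pdgfc). Without mesenchyme 1 and with probe sets as chosen on all 6 arrays, a setting added after the data were seen, Pdgfb was -1.90 in place of the -0.64 that its other probe set gave, Pdgfc was -0.080, Pdgfd -2.32 and Pdgfrb -3.03. The causes of these shifts were not tested.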
